A study of Drosophila melanogaster with 10 samples.

Results

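The receptors for neuropeptides and peptide hormones described here are 39 genes, picked by name from the receptor families of the fly and read out of the bulk RNA-seq of Kenyon cells (KCs) from dSERT16 and dSERT4 flies. Of the 39, 37 were among the 9655 genes of the authors' deposited table, and CapaR and CNMaR were not. In the count tables, 35 of the 39 passed the filter on low counts and were tested together with all 8690 genes that passed, while PK1-R, AkhR, CapaR and CNMaR did not pass. The values answer which of these receptors were detected in the sorted KC samples, and which differed between dSERT16 and dSERT4. The samples also held glial markers, so a level is that of the sample, and which cells the reads of a receptor came from was not tested.

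The dSERT16 flies were homozygous for an allele of the serotonin transporter gene SerT that came from the imprecise excision of a P-element and lacks a stretch at the 5′ end of the gene, including a non-coding exon. The dSERT4 flies were homozygous for an allele from the same background that carries a smaller deletion, and they served as the control. Flies of both genotypes were female, were taken on the day of eclosion (day 0), and carried Mef2(P247)-gal4 with UAS-nls.GFP, which marks KC nuclei with GFP. The α′/β′ subtype is underrepresented with this driver. Each sample was a pool of central brains without optic lobes, sorted for GFP. On each of 5 dates 1 sample per genotype was collected. The dates are called replicates 1 to 5 here, and replicates 2 to 5 are the 4 pairs that the study analyzed. A bulk sample mixes KC subtypes, so fewer cells of a type and less RNA per cell cannot be told apart.

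KCs, the principal cells of the mushroom body and of olfactory learning in the fly brain, receive peptides from neurosecretory cells, from local neurons and from other KCs. Nearly all of these receptors are G protein-coupled receptors: a peptide binds outside the cell, and the receptor passes the signal to a G protein that changes cAMP or calcium inside it. Class B receptors, such as those for the diuretic hormones Dh44 and Dh31 and for the clock peptide Pdf, act mostly through cAMP, a second messenger on which memory formation in KCs depends.

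Between 18446396 and 69997102 reads fell on genes per sample, and replicate 1 held the deepest library of each genotype. Few reads fell on SerT itself, with 5 to 40 reads in the 4 dSERT16 samples and 19 to 69 reads in the 4 dSERT4 samples (log2 fold change -1.92, standard error (SE) 0.70, edgeR adjusted p = 0.519). All 12 KC markers examined were present in every sample, with a summed level of 18665 to 19770 in dSERT16 and 18541 to 19703 in dSERT4, in TPM computed from exon length (exon TPM, explained below). Glial markers were present too, at a summed 963 to 1510 exon TPM in dSERT16 and 917 to 1597 exon TPM in dSERT4, although 2 of the 8, moody and alrm, were at 0 reads in every sample. Photoreceptor and muscle markers summed to at most 15.5 exon TPM in the 4 pairs. Fat body and blood cell markers summed to 560 to 636 exon TPM in dSERT16 and 479 to 608 exon TPM in dSERT4, nearly all of it Pxn, and markers of other transmitter neurons to 172 to 228 exon TPM in dSERT16 and 154 to 204 exon TPM in dSERT4, most of it VGAT. Markers of peptidergic neurons summed higher, to 3020 to 3166 exon TPM in dSERT16 and 3063 to 3318 exon TPM in dSERT4. Nearly all of it was amon, Phm and Pal2, while dimm averaged 0.117 exon TPM in dSERT16 and 0.365 in dSERT4. None of the 7 marker lists held a gene called between the genotypes by edgeR. DESeq2 called 1 muscle marker and no other. Of all these markers, 2 had an unadjusted edgeR p under 0.05, both listed for other transmitter neurons: Gad1 (log2 fold change 0.70, SE 0.28) and SerT itself. Of all 8690 genes tested, 609 had such a p. Replicate 1 stood apart in glial markers, at 211 exon TPM in dSERT16 and 459 exon TPM in dSERT4, and it is treated separately.

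Levels of different receptors can be compared only per length. The authors' TPM values divide the reads by the whole gene, introns included, which lowers genes with long introns: AstA-R1 stood at 0.70 in dSERT4 as the authors' mean TPM, and at 11.1 exon TPM. The levels below are therefore exon TPM, that is, reads per merged exon length scaled to the same total in every sample. By this measure 11 receptors made up 91.4% of the summed level of all 39 in dSERT16 and 91.3% in dSERT4, and they were the same 11 genes in both. Lgr1 and the sulfakinin receptors CCKLR-17D1 and CCKLR-17D3 stood at the top, with Lgr3 and, in dSERT4, Dh44-R1.

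By the count that ignores strand, Lgr1, the receptor of the glycoprotein hormone thyrostimulin, had the highest level. It stood at 158 ± 18.4 exon TPM in dSERT16 and 178 ± 33.6 exon TPM in dSERT4 (SD, n = 4 each). CCKLR-17D3 followed at 132 ± 15.3 in dSERT16 and 138 ± 32.3 in dSERT4, and Lgr3, the receptor of the relaxin-like peptide Ilp8, at 119 ± 6.37 in dSERT16 and 134 ± 16.0 in dSERT4. CCKLR-17D1 stood at 107 ± 4.94 exon TPM in dSERT16 and 123 ± 5.48 exon TPM in dSERT4. In dSERT4 the ranges of these 4 receptors overlapped, except those of Lgr1 and CCKLR-17D1. In dSERT16 CCKLR-17D1 lay below the ranges of the other three, and Lgr3 lay below Lgr1 by this count, while CCKLR-17D3 overlapped both Lgr1 and Lgr3. Of all genes tested, 85.5% had a lower level than Lgr1.

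The next group lay well below. TkR86C, the receptor of the tachykinin relative natalisin, stood at 59.8 ± 13.5 exon TPM in dSERT16 and 59.0 ± 9.11 exon TPM in dSERT4. The class B receptor hector (hec), which is needed for normal male courtship, stood at 51.7 ± 4.43 in dSERT16 and 50.9 ± 4.97 in dSERT4. SPR, the receptor for sex peptide and myoinhibitory peptides, stood at 27.0 ± 4.02 in dSERT16 and 30.0 ± 3.45 in dSERT4, and SIFaR, the SIFamide receptor, at 27.8 ± 5.66 in dSERT16 and 26.4 ± 1.72 in dSERT4. rickets (rk), the receptor of the hormone bursicon, was held at 21.6 ± 2.0 exon TPM in dSERT16 and 26.3 ± 7.25 exon TPM in dSERT4. The ranges of SPR, SIFaR and rk overlapped in dSERT4, while in dSERT16 rk, at 19.8 to 24.0 exon TPM, lay just below SPR, at 24.1 to 32.7, and SIFaR overlapped both.

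**Figure D1:**
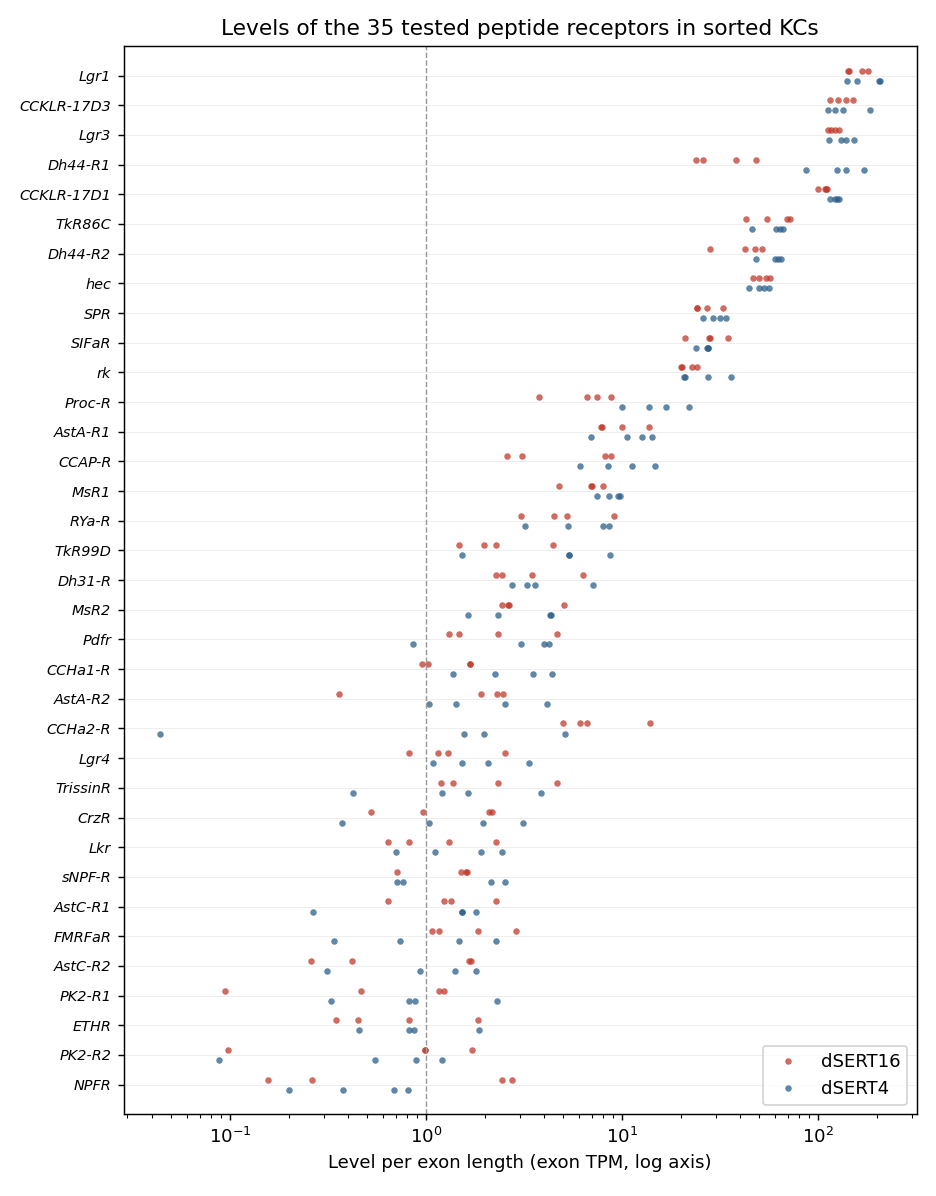
Level of each of the 35 tested receptors in exon TPM (log axis), 1 point per sample of the 4 pairs, dSERT16 in red above dSERT4 in blue, ordered by the dSERT4 mean; the dashed line marks 1 exon TPM. The rows run from Lgr1, with every point above 100, to NPFR, with every dSERT4 point below 1. The spread between samples of 1 genotype widens toward the bottom.

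Below these 11, 6 receptors averaged between 5 and 20 exon TPM over both genotypes: Proc-R, AstA-R1, CCAP-R, MsR1, RYa-R and CCHa2-R. The remaining 18 tested receptors averaged less than 5. They included Pdfr, the receptor of the clock peptide Pdf, at 2.44 ± 1.55 exon TPM in dSERT16 and 3.04 ± 1.54 in dSERT4, and NPFR, the neuropeptide F receptor, at 1.40 ± 1.38 in dSERT16 and 0.519 ± 0.280 in dSERT4. Counted at 1 TPM or more in every sample of a genotype, 14 receptors were held in dSERT16 and 13 in dSERT4 by the authors' TPM, against 23 in dSERT16 and 22 in dSERT4 by exon TPM. The count per exon length was chosen after the data had been seen.

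At the low end, AkhR, the adipokinetic hormone receptor of the fat body, had 1 to 27 reads per sample, PK1-R had 0 to 43 and CapaR 0 to 25. A count of 0 allows up to 3 reads, a limit that covers counting error only, since the libraries carry no molecular identifiers. CNMaR, the CNMamide receptor, had 0 reads in all 10 samples when reads were taken without regard to strand. In the 2 strand-specific columns summed it had 67 to 321 reads in dSERT16 and 57 to 210 reads in dSERT4 (4 pairs), so its 0 is not evidence that it was absent. Reads over overlapping genes were assigned to neither gene. The strand-specific sum exceeded the count used here for other receptors as well, 1.69-fold for Lgr3, 1.55-fold for Lgr4, 1.47-fold for Dh44-R2 and 1.43-fold for RYa-R. It did so by less for TrissinR (1.27-fold), CCHa1-R (1.12-fold) and SPR (1.10-fold). Of the exon bases of Lgr3, 34.5% lie under CG4730 or lncRNA:CR45225, and of those of Dh44-R2, 33.2% lie under CG34234 or fdl. For Lgr4 the share was 29.2%, under CG12096, for SPR 26.8%, under frma, and for rk 9.78%, under NimC2. For RYa-R it was only 1.22%, and for CNMaR, TrissinR and CCHa1-R 0% in the annotation used here. What separates the 2 counts in RYa-R, CNMaR, TrissinR and CCHa1-R was not tested. The levels of Lgr3, Lgr4, Dh44-R2, RYa-R, TrissinR, CCHa1-R and SPR are therefore taken as lower limits. The strand-specific sum can also include reads of the gene on the other strand. Over all 10 samples that sum was 82312 reads on 3005 exon bases for Lgr3 and 81481 reads on 3222 for Lgr1. The place of Lgr3 below Lgr1 therefore depends on the count used.

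The peptides were read beside their receptors. sNPF, the short neuropeptide F that KCs themselves make, had the highest level of the 34 peptide genes found in the count tables, 2860 ± 181 exon TPM in dSERT16 and 3171 ± 209 exon TPM in dSERT4, while its receptor sNPF-R stood at 1.35 ± 0.431 in dSERT16 and 1.53 ± 0.936 in dSERT4. Gpb5, a subunit of thyrostimulin, followed at 63.1 ± 6.20 exon TPM in dSERT16 and 70.5 ± 7.91 in dSERT4. Its receptor Lgr1 was high too, but Gpa2, also listed, was not found in the count tables. Peptides of other high receptors were low: by the count that ignores strand, the sulfakinin gene Dsk and natalisin (Nata) had 0 reads in every sample. Ilp8, the peptide of Lgr3, stood at 0.261 exon TPM in dSERT16 and 1.12 in dSERT4. Proctolin (Proc) stood at 38.2 ± 3.96 exon TPM in dSERT16 and 47.8 ± 4.38 in dSERT4, against 6.64 ± 2.13 in dSERT16 and 15.5 ± 5.04 in dSERT4 for Proc-R. The peptide Dh44 was low, at 1.60 ± 0.465 exon TPM in dSERT16 and 3.23 ± 1.27 in dSERT4. Of 35 peptide genes listed, 14 were tested, and edgeR called none between the genotypes, none had an unadjusted p under 0.05, and DESeq2 called none.

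Between the genotypes, 1 of the 35 receptors was called: Dh44-R1 was lower in dSERT16, at 0.265 of its dSERT4 level. Over all genes, the quasi-likelihood test of edgeR called 43 of 8690 (0.495%) at a Benjamini-Hochberg adjusted p under 0.05, and 20 of 8690 (0.23%) in the direction of Dh44-R1. Proc-R, the receptor of the myotropic peptide proctolin, lay lower in all 4 dSERT16 samples without passing that test, and CCHa2-R, a receptor for the nutrient-signaling peptide CCHamide-2, lay higher in all 4 without passing it. The 4 receptors whose genotypes did not overlap in CPM (reads per gene scaled to library size, after TMM normalization) were these 3 and CCKLR-17D1, or 4 of 35, where 4.89% of all genes tested did not overlap. Over all 5 pairs 2 of 35 did not overlap, Dh44-R1 and CCHa2-R, against 2.7% of all genes.

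Dh44-R1 (FBgn0033932) lies on chromosome 2R from 14378097 to 14385359 in BDGP6 and shares no exon with another gene. Its level was 45.4, 34.5, 24.2 and 22.5 CPM in dSERT16 replicates 2 to 5, against 159, 124, 78.8 and 116 CPM in dSERT4 replicates 2 to 5. The highest dSERT16 sample thus lay below the lowest dSERT4 sample. The means were 31.7 ± 10.6 CPM in dSERT16 and 119 ± 33.1 CPM in dSERT4 (SD, n = 4 each), a log2 fold change of -1.91 (SE 0.26, edgeR adjusted p = 0.00987). Replicate 1, which had no part in that test, gave 30.2 CPM in dSERT16 and 164 CPM in dSERT4. The ratio of dSERT16 to dSERT4 within a collection lay between 0.184 and 0.308 in all 5.

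The fold change of Dh44-R1 lay between -2.13 and -1.74 under all 16 alternatives, but its call depended on single samples. Without dSERT16 replicate 3 the edgeR adjusted p was 0.0593 and without dSERT4 replicate 3 it was 0.0514, and with no filter on low counts it was 0.115. In the 13 other alternatives, including all 5 pairs and DESeq2, it was called.

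**Figure D2:**
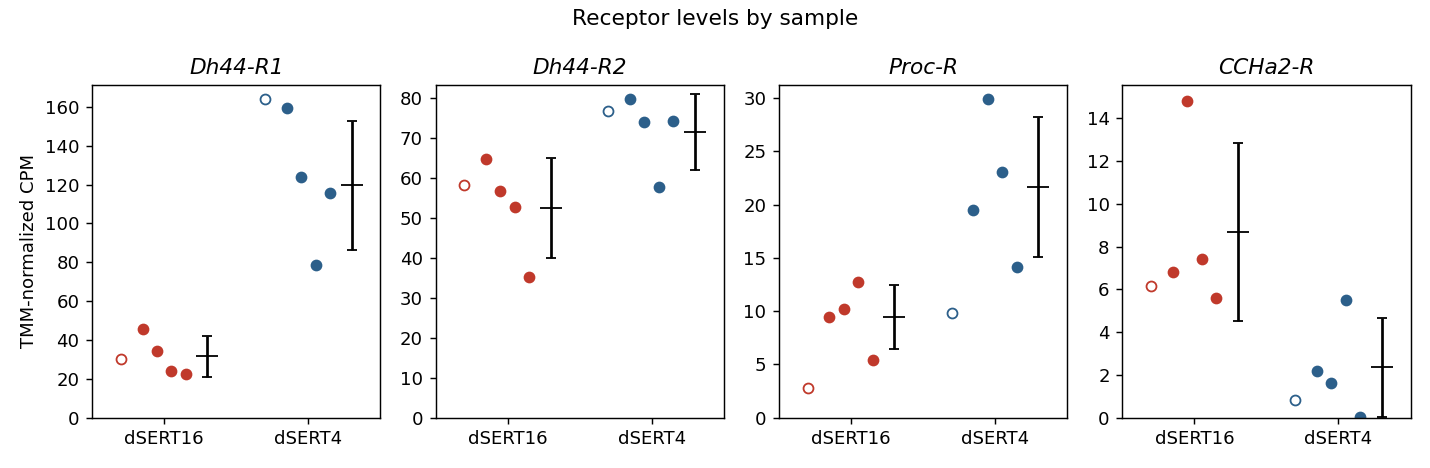
TMM-normalized CPM of Dh44-R1, Dh44-R2, Proc-R and CCHa2-R, dSERT16 in red on the left and dSERT4 in blue on the right of each panel; filled points are replicates 2 to 5, open points replicate 1, and bars the mean ± SD of replicates 2 to 5. The Dh44-R1 samples of dSERT16 all lie below 50 CPM and those of dSERT4 all above 75, while the Dh44-R2 groups overlap.

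The second receptor for the same peptide, Dh44-R2, was not called. It stood at 64.9, 56.9, 52.8 and 35.2 CPM in dSERT16, against 79.9, 74.1, 57.8 and 74.4 CPM in dSERT4. The samples overlapped, and the log2 fold change of -0.45 (SE 0.17, edgeR adjusted p = 0.538) missed the threshold. Within each of the 5 collections dSERT16 stood at 0.473 to 0.913 of dSERT4. The order of the pair per exon length turned round between the genotypes. Dh44-R1 stood at 0.797 ± 0.135 of the Dh44-R2 level in dSERT16, with 0.608 to 0.927 over the samples, and at 2.18 ± 0.352 times that level in dSERT4, with 1.81 to 2.64 (n = 4 each). In replicate 1 the ratio was 0.687 in dSERT16 and 2.83 in dSERT4. With the strand-specific sums, which raise Dh44-R2, the ratio was 0.554 ± 0.108 in dSERT16 and 1.54 ± 0.255 in dSERT4. This ratio was chosen after the values of Dh44-R1 had been seen and is given as a description, without a p-value.

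**Figure D3:**
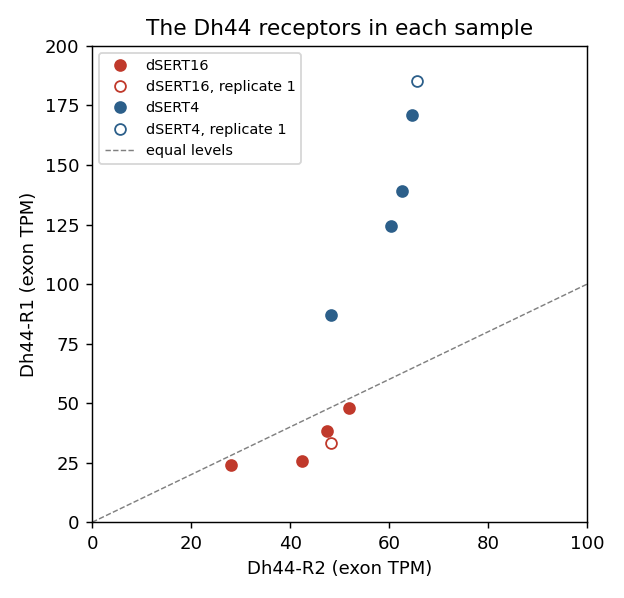
Level of Dh44-R1 against that of Dh44-R2 in each of the 10 samples, both in exon TPM, dSERT16 in red and dSERT4 in blue, open points for replicate 1; the dashed line marks equal levels and the axes have different scales. All 5 dSERT16 samples lie under the line, and all 5 dSERT4 samples lie above it.

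Among the other class B receptors, hec had a log2 fold change of 0.05 (SE 0.12, edgeR adjusted p = 0.993), Dh31-R -0.19 and Pdfr -0.29, and none was called. The G proteins, adenylyl cyclases, protein kinase A subunits, phospholipases and receptor kinases downstream of these receptors included genes at far higher levels, for example the stimulatory G protein subunit Galphas at 378 ± 26.7 exon TPM in dSERT16 and 390 ± 14.4 in dSERT4, and the catalytic subunit Pka-C1 at 2507 ± 48.6 in dSERT16 and 2470 ± 341 in dSERT4. Of 27 such genes listed, 26 were tested. EdgeR and DESeq2 called none of them between the genotypes. An unadjusted edgeR p under 0.05 was found for 2 of them and for 609 of all 8690 genes tested. Their median log2 fold change was -0.02, and the values ran from -0.61 to 0.22.

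Proc-R (FBgn0029723, chromosome X from 4707916 to 4729487) stood at 9.49, 10.2, 12.7 and 5.43 CPM in dSERT16 replicates 2 to 5, against 19.5, 29.9, 23.0 and 14.1 CPM in dSERT4. The groups did not overlap, with 12.7 CPM as the highest dSERT16 value and 14.1 CPM as the lowest dSERT4 value. The log2 fold change was -1.19 (SE 0.27), and the edgeR adjusted p of 0.0818 missed the threshold. With the collection date as a block, in which each dSERT16 sample is compared with the dSERT4 sample dissociated beside it, the edgeR adjusted p was 0.0196, and 2 of 35 receptors, Proc-R and Dh44-R1, were called (0.621% of all genes). The block over all 5 pairs gave 0.0078 (2 of 35 receptors, 1.08% of all genes), DESeq2 gave 0.00174 (2 of 37 receptors, 1.53% of all genes), and edgeR with no filter gave 0.00441 (1 of 38 receptors, 0.498% of all genes). All 5 pairs without the block did not call it (edgeR adjusted p = 0.266), and within each of the 5 collections dSERT16 stood at 0.287 to 0.551 of dSERT4.

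Proc-R moved with the glial markers from sample to sample. In dSERT4 its level followed the summed glial level in order over all 5 samples, from 9.83 CPM at 459 exon TPM of glial markers in replicate 1 to 29.9 CPM at 1597 exon TPM in replicate 3. In dSERT16 it ran from 2.82 CPM at 211 exon TPM in replicate 1 to 12.7 CPM at 1510 exon TPM in replicate 4, with 2 neighboring samples in the other order. Per 1000 exon TPM of glial markers, Proc-R stood at 7.68 ± 1.55 CPM in dSERT16 and 16.2 ± 1.69 CPM in dSERT4 (n = 4 each), and over all 5 samples the ranges were 5.64 to 13.4 in dSERT16 and 15.04 to 21.4 in dSERT4. This measure was chosen after the values had been seen, and since the glial sums of the 4 pairs overlapped between the genotypes it largely restates the difference in Proc-R itself. No p-value is given for this measure. Which cells the Proc-R reads came from was not tested.

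**Figure D4:**
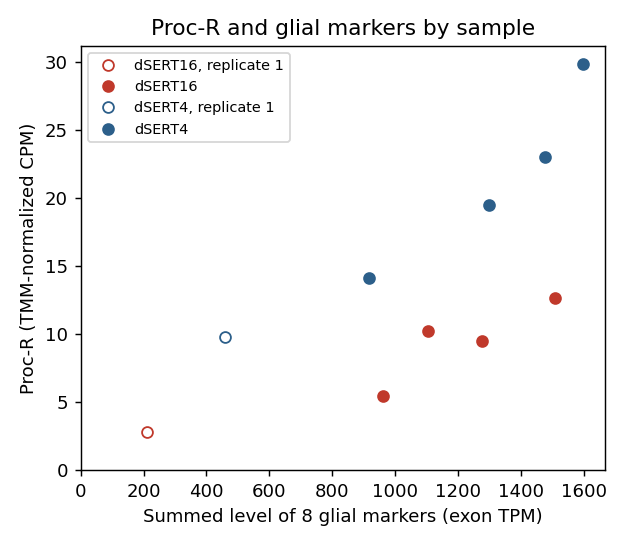
TMM-normalized CPM of Proc-R against the summed exon TPM of the 8 glial markers in each of the 10 samples, dSERT16 in red and dSERT4 in blue, open points for replicate 1. Both genotypes climb from the replicate 1 sample at the lower left, and Proc-R is lower in the dSERT16 sample of every collection than in its dSERT4 pair.

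CCHa2-R (FBgn0033058, chromosome 2R from 6050949 to 6068680) was a low and uneven receptor. Its level was 6.81, 14.8, 7.43 and 5.62 CPM in dSERT16 replicates 2 to 5, against 2.19, 1.64, 5.52 and 0.0484 CPM in dSERT4. These values rest on 178, 778, 137 and 122 reads in dSERT16 and on 105, 49, 112 and 1 reads in dSERT4. The groups were separated only by the step between 5.52 CPM in dSERT4 replicate 4 and 5.62 CPM in dSERT16 replicate 5. Replicate 1 gave 6.16 CPM in dSERT16 and 0.830 CPM in dSERT4. The log2 fold change of 1.89 had an SE of 0.81, and the edgeR adjusted p was 0.671, with 0.0992 to 0.96 over 15 alternatives. The receptor of the related peptide CCHamide-1, CCHa1-R, had a log2 fold change in the other direction, -1.08 (SE 0.51, edgeR adjusted p = 0.728), at 1.33 ± 0.395 exon TPM in dSERT16 and 2.89 ± 1.34 exon TPM in dSERT4.

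Sulfakinins are satiety peptides related to vertebrate cholecystokinin, and their receptors lie 37910 bases apart on chromosome X. CCKLR-17D1 stood at 134, 126, 122 and 135 CPM in dSERT16, against 139, 148, 146 and 147 CPM in dSERT4. Its samples did not overlap, but the step was small, with a log2 fold change of -0.16 (SE 0.09, edgeR adjusted p = 0.783), and replicate 1 gave 151 CPM in dSERT16 and 162 CPM in dSERT4. Within each of the 5 collections dSERT16 stood at 0.832 to 0.964 of dSERT4. CCKLR-17D3 stood at 118, 93.9, 128 and 107 CPM in dSERT16, against 94.3, 107, 99.3 and 155 CPM in dSERT4. Its groups overlapped, and the log2 fold change of -0.03 (SE 0.15) turned positive in some alternatives.

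The leucine-rich repeat receptors, which bind large hormones through a long extracellular domain, included none that was called. Lgr1 stood at 174, 211, 176 and 206 CPM in dSERT16, against 192, 241, 166 and 248 CPM in dSERT4 (log2 fold change -0.14, SE 0.13, edgeR adjusted p = 0.909). Lgr3 stood at 140, 139, 129 and 133 CPM in dSERT16, against 157, 124, 144 and 172 CPM in dSERT4 (log2 fold change -0.14, SE 0.11, edgeR adjusted p = 0.879). Both pairs of groups overlapped. rk had a log2 fold change of -0.26 and Lgr4, an LGR held at 1.45 exon TPM in dSERT16 and 2.01 exon TPM in dSERT4, of -0.44.

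Among the tachykinin and leucokinin receptors, TkR86C stood at 50.7 to 88.2 CPM in dSERT16 and 53.3 to 80.4 CPM in dSERT4, with a log2 fold change of 0.05 (SE 0.17, edgeR adjusted p = 0.995). TkR99D, the main tachykinin receptor, lay at 2.49, 4.69, 2.17 and 1.61 CPM in dSERT16 and 5.83, 1.58, 5.66 and 9.35 CPM in dSERT4. The lowest of these 8 values was in dSERT4, so the groups overlapped, and the log2 fold change of -1.02 (SE 0.50, edgeR adjusted p = 0.734) was not called. Lkr, the leucokinin receptor, had a log2 fold change of -0.25.

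Of the remaining families none held a called receptor. CCAP-R, the receptor of crustacean cardioactive peptide, had the lowest fold change among them, with 9.26, 9.55, 3.52 and 2.95 CPM in dSERT16 against 12.6, 15.8, 6.65 and 9.45 CPM in dSERT4 (log2 fold change -0.81, SE 0.39, edgeR adjusted p = 0.734). Within every collection its dSERT16 sample lay below its dSERT4 sample, at 0.312 to 0.735 of it. The same held for MsR1 (0.495 to 0.983) and CCHa1-R (0.134 to 0.775), and how many of all genes do so was not counted. NPFR had a log2 fold change of 1.43 (SE 0.88, edgeR adjusted p = 0.826), which rested on 169 and 55 reads in dSERT16 replicates 3 and 4, while dSERT16 replicates 2 and 5 had 5 and 7 reads. TkR99D, CCAP-R, CCHa1-R, NPFR and the ratios of MsR1 were singled out after their values had been seen. The allatostatin receptors (AstA-R1, AstA-R2, AstC-R1 and AstC-R2) lay between -0.36 and 0.14, the FMRFamide and myosuppressin receptors (FMRFaR, MsR1 and MsR2) between -0.38 and 0.57, and the tested pyrokinin and ecdysis triggering hormone receptors (PK2-R1, PK2-R2 and ETHR) between -0.51 and 0.48. sNPF-R, RYa-R and SIFaR lay between -0.16 and 0.10, CrzR, the corazonin receptor, stood at -0.16, SPR at -0.13 and TrissinR at 0.42.

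**Figure D5:**
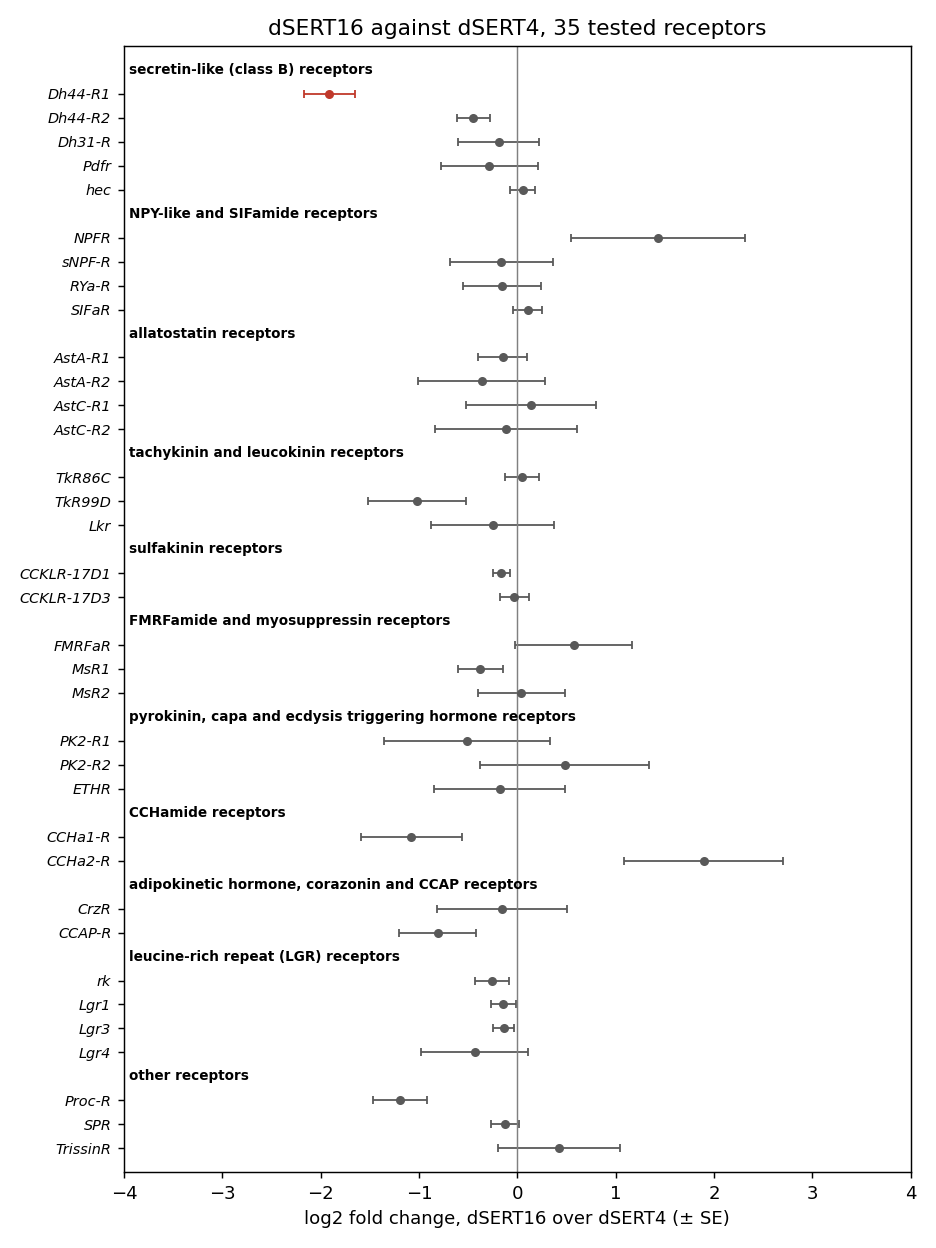
Log2 fold change of dSERT16 over dSERT4 (± standard error, edgeR, 4 pairs) of the 35 tested receptors, grouped by family; the red point passed an adjusted p of 0.05. Dh44-R1 stands at -1.91, and the other points with large values, CCHa2-R and NPFR to the right and CCHa1-R and TkR99D to the left, have wide error bars, while that of Proc-R at -1.19 is narrower.

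Taking all receptors, 25 of 35 (71.4%) had a log2 fold change below 0, against 49.97% of all genes tested, with medians of -0.16 for the receptors and 0.00 for all genes. Without dSERT4 replicate 2 the count was 19 of 35, and without each other sample it was 23 or more. Of the 11 receptors at 20 exon TPM or more, 8 lay below 0, and of the 18 under 5 exon TPM, 12 did. The summed level of the 39 receptors was 855 ± 33.5 exon TPM in dSERT16 and 1045 ± 76.3 exon TPM in dSERT4, and 821 ± 26.0 in dSERT16 against 915 ± 57.6 in dSERT4 without Dh44-R1. Precision fell with level. The standard error of the log2 fold change was 0.09 to 0.26 in the 11 receptors at 20 exon TPM or more, 0.23 to 0.81 in the 6 between 5 and 20, and 0.41 to 0.88 in the 18 below 5. For these last 18, a change of the size of that in Proc-R would lie within 3 standard errors of 0.

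By position, the 35 tested receptors lay on X (8), 2L (2), 2R (5), 3L (8) and 3R (12). SerT lies on 2R. The 5 receptors on 2R, Dh44-R1, Dh44-R2, Dh31-R, CCHa1-R and CCHa2-R, had a median absolute log2 fold change of 1.08, against 0.16 for the 8 on X, 0.34 for the 2 on 2L, 0.16 for the 8 on 3L and 0.27 for the 12 on 3R. The 2R median is the value of CCHa1-R, which was not called. All 1704 genes tested on 2R had a median absolute log2 fold change of 0.16, and 19 of them were called. Fewer were called on each other arm, 7 of 1451 genes on X and 1 of 1552 on 2L. On 3L the calls were 5 of 1695, and on 3R 7 of 2122. Alleles that differ between the dSERT16 and dSERT4 chromosomes elsewhere on the second chromosome and the SerT allele itself cannot be told apart in this design. Within 100 kb of Dh44-R1, 13 other genes were tested, with a median log2 fold change of 0.02 and none called (lowest edgeR adjusted p = 0.636). Their log2 fold changes ran from -1.60 to 0.59. The same window held 16 other genes around Proc-R (-0.37 to 1.25) and 15 around CCHa2-R (-0.85 to 0.64), and none of them was called either.

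The collections were compared as well, since replicate 1 was left out by the study. With genotype in the model, edgeR called 84 of 8726 genes (0.963%) between replicate 1 and replicates 2 to 5, and 0 of 35 receptors. An unadjusted edgeR p under 0.05 was found for 5 of the 35 receptors and for 1310 of the 8726 genes. DESeq2 called 2 of 37 receptors, Lgr3 and Proc-R, where it called 5.15% of all genes, and edgeR with no filter called 1 of 38, Proc-R, where it called 0.72%. Proc-R had a log2 fold change of -1.42 in replicate 1 (SE 0.34, edgeR adjusted p = 0.0643), and it was called without dSERT16 replicate 5 (edgeR adjusted p = 0.0495) or without dSERT4 replicate 5 (edgeR adjusted p = 0.0406). Lgr3 had a log2 fold change of -0.38 (SE 0.12, edgeR adjusted p = 0.148) and SIFaR of -0.52 (SE 0.17, edgeR adjusted p = 0.164). In the same comparison 5 of the 6 glial markers tested were called lower, with a median log2 fold change of -2.52, and edgeR and DESeq2 called 0 of the 12 KC markers, of which 2 had an unadjusted edgeR p under 0.05. Their part in the receptor values was not tested. Dh44-R1 was not called between the collections (log2 fold change 0.21, SE 0.27, edgeR adjusted p = 0.781).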

How the data were processed

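Bulk RNA-seq (SMART-seq) was made from FACS-sorted KCs, 5 samples per genotype. Reads had been aligned by the authors with STAR to BDGP6 (dm6 in the submitters' processing notes), who deposited, per the labels, counts of uniquely mapped reads per gene for each sample, without normalization. The annotation release and STAR version are not given in the sources used here. The count that ignores strand was used, since 48.3% to 49.9% of reads fell on the first strand. Unmapped (8.03% to 14.5%), multimapping (0.875% to 1.13%) and ambiguous reads (8.84% to 9.85%) stayed out of library sizes and tests. The authors' deposited table also holds TPM values for the 8 samples of replicates 2 to 5, which were used for levels, and their own fold changes and p-values for the genotypes, which were not used. At least 99.96% of the TPM values of genes with over 100 reads matched, within 2%, reads divided by whole gene length, and 3.53% to 4.18% matched merged exon length. Exon TPM is reads per merged exon length in a BDGP6 annotation on the same scale as TPM.

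For replicates 2 to 5, edgeR 4.0.16 (R 4.3.3) tested the counts (filterByExpr with a minimum count of 10 and total of 15, TMM, robust glmQLFit, no covariate; adjusted p under 0.05). The SE of a fold change was taken as its absolute log2 value over the square root of F. Replicate 1 was compared with the others over all 10 samples with genotype as covariate. The collection dates and the parallel dissociation pair the samples, and the correlation of deviations from the genotype means within a date was 0.108, 0.0990, 0.0561 and 0.0835. Alternatives were DESeq2 1.42.0, its size factors, other filters, all 5 pairs, the date as a block, strand-specific columns summed, and leaving out each sample. Named receptors were those called, not overlapping, among the 8 highest by TPM, or named in the paper for this experiment. The members and lists were chosen with earlier results of these data known. The tests were checked on simulated counts. Tables and figures used Python 3.11.15. No sequences are shown.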

Additional observations from a re-analysis of the deposited data

Results flagged for a closer look

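CNMaR had 57 to 466 reads per sample in the 2 strand-specific columns summed, which no comparison of the receptors rests on, against 0 reads in every sample when strand was ignored. In those columns its log2 fold change of dSERT16 over dSERT4 was -0.10 (standard error 0.35, edgeR adjusted p = 0.995). Among 28 groups of 4 samples (14 receptors in each genotype) no sample stood apart by Dixon's test. With 4 samples this test flags only a very large gap and passes 2 high samples together, as in NPFR in dSERT16, so it does not show that the groups were even.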

How the results depend on the processing

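With DESeq2, 149 genes and 2 receptors were called between the genotypes, with no filter on low counts 77 genes, with all 5 pairs 66 genes, at an adjusted p under 0.01 19 genes, when the collection date was a block 54 genes and 2 receptors, and with that block over all 5 pairs 94 genes and 2 receptors, against 43 genes and 1 receptor. Leaving out 1 sample gave 18 to 40 genes and 0 to 1 receptors, with 19 and 21 genes without dSERT16 replicates 3 and 5 and 18 and 22 without dSERT4 replicates 3 and 5. The block changed the call of no named receptor other than Proc-R. CCKLR-17D3, at a log2 fold change of -0.03, stood at 0.00983 with all 5 pairs, at 0.0262 with the block over all 5 pairs and between -0.107 and 0.155 with 1 sample left out, and TkR86C, at 0.05, between -0.0696 and 0.186 with 1 sample left out. Between replicate 1 and the others, DESeq2 called 509 genes and 2 receptors and edgeR with no filter 1 receptor, against 84 genes and 0 receptors, and leaving out 1 sample gave 23 to 136 genes and 0 to 1 receptors, with 23 and 49 genes without dSERT16 replicates 1 and 5 and 136 and 45 without dSERT4 replicates 2 and 4. The receptors held at 1 TPM or more in every dSERT4 sample numbered 13 by the authors' TPM and 22 per exon length, which was added after the data had been seen. Which of these differences comes from depth, filter or tool was not tested. Precision was lowest in the 18 receptors under 5 exon TPM, with a median standard error of 0.62, and what limits it was not tested. For Lgr3, Lgr4, Dh44-R2 and SPR, which share exon bases with other genes, the count used here lay below the strand-specific sum.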
